A study of Mus musculus with 4 samples.

Results

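The interleukin-1 family is a set of inflammatory cytokines with their receptors, antagonists and activating protease, and 10 of its genes were followed here in mouse cardiac fibroblasts that overexpressed the orphan nuclear receptor Nr4a3. The genes were taken by symbol from a table of read counts that lists 55359 genes: the ligands Il1a, Il1b, Il18 and Il33, the inhibitors Il1rn and Il18bp, the receptor chains Il1r1, Il1rap and Il1rl1, and the protease gene Casp1. All 10 were found, each as a single row. The tested libraries were OENr4a3 replicates 1 and 2, and those they were set against were OECtrl replicates 1 and 2, an overexpression control. Both groups were primary cardiac fibroblasts from the hearts of wild-type mice of postnatal day 1 to 3. The time of collection is day 10 by the sample titles but day 7 of reprogramming by the design text. The question behind the comparison is how Nr4a3 overexpression affects fibroblasts on the way to induced cardiomyocytes; the labels name no reprogramming factors. No label says whether replicates came from separate cultures or animals, so the spread on which the p-values rest may be purely technical.

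Ligands of this family reach cells in different ways. IL-1 alpha and IL-33 act as alarm signals released from damaged cells, whereas IL-1 beta and IL-18 are made as inactive precursors that caspase-1 cuts inside inflammasomes. IL-1 alpha and IL-1 beta bind the receptor chain encoded by Il1r1, which then recruits the accessory chain encoded by Il1rap and signals through MYD88 and IRAK kinases to NF-kB; IL-33 binds ST2, encoded by Il1rl1, and uses the same accessory chain. The receptor antagonist from Il1rn occupies the IL-1 receptor without signalling, and the binding protein from Il18bp captures free IL-18. In the heart, fibroblasts are known as a main target of IL-1, and macrophages as a main source of IL-1 beta.

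The upstream sequences of 3 members are shown because 2 of them, Il1rap and Il18, passed the test described below, and Il1a had the largest fold estimate of the members. Each is the 250 bases before the RefSeq start on GRCm38.p6, written 5′ to 3′ on the strand of the gene. In Il1rap (chr16:26581455-26581704, plus strand) capitals mark matches to the kB pattern of NF-kB sites (3 G, any 5 bases, then 2 C), in Il1a (chr2:129309973-129310222, minus strand) a match to the AP-1 pattern TGANTCA, and in Il18 (chr9:50554450-50554699, plus strand) neither pattern matched.
Il1rap: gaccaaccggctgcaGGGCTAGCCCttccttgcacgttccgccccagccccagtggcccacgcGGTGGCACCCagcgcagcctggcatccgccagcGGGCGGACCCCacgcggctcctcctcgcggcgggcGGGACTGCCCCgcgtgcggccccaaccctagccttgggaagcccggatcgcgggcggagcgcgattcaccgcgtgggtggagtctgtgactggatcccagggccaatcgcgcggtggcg
Il1a: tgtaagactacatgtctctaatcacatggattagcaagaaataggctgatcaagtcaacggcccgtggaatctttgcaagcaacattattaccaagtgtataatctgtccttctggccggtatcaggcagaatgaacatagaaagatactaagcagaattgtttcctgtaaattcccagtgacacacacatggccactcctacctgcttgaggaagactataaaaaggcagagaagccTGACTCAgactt
Il18: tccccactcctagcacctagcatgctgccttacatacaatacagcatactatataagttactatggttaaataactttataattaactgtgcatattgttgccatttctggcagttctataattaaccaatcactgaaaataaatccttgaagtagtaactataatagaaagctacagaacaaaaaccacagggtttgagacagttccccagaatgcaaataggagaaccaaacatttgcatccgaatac

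Sequence patterns were searched on both strands of the 15 RefSeq start windows of the 10 members, each window running from 250 bases before to 50 bases after a start. The NR4A response element NBRE (AAAGGTCA), which Nr4a3 and its relatives bind as monomers, matched in 0 of the 15 windows, against 1.51% of 32851 mouse windows of the same length. The kB pattern matched in 6 windows of 4 members (Casp1, Il1r1, Il1rap and Il1rn), against 50.8% of all windows. Overlapping windows of neighbouring Il1rn starts share a kB match, so that site is counted more than once. Some of the 6 kB matches in the GC-rich Il1rap window overlap each other. The AP-1 pattern matched in Il1a, with its first base at -12, and in Il1rn, at -141 (7.81% of all windows). A pair of interferon-type half-sites (TTTC, any 2 bases, TTTC) matched once, after the start of Il1rap (3.44% of all windows), and the STAT pattern TTCNNNGAA matched in 0 of the 15 (8.3%). These matches describe letters and not sites of binding, and a missing match says only that the letters are not in the window.

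The 4 libraries held 14275501 to 18441428 counts, and levels are given as CPM, the counts per 1000000 of a library scaled by TMM factors. Taking counting error alone, a listed 0 still admits a level of 3 reads, which is 0.165 to 0.208 CPM depending on the library. Nr4a3 itself measured 175 and 178 CPM in OENr4a3 and 2.49 and 1.85 CPM in OECtrl. Of all genes, 15029 passed the filter on low counts, and edgeR's quasi-likelihood test called 3457 of these (23%) at an adjusted p under 0.05: 12% were higher in OENr4a3 and 11% lower. Longer genes tended to stand higher in OENr4a3 (Spearman's rho of the log2 fold change with exonic length 0.42 across the tested genes, which are not independent). Fibroblast markers were abundant in all libraries (9 markers, summed level 19001 and 19126 CPM in OENr4a3, 18737 and 17767 CPM in OECtrl). Markers of other cells were present at lower levels, led by Lyz2 of macrophages, Msln of mesothelium and Tnnt2 of heart muscle. The mast cell, lymphocyte and endothelial markers with the highest CPM, Kit, Il7r and Tek, stayed under 16 CPM in each library, and 7 neutrophil markers summed to at most 1.45 CPM.

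Of the 10 members, 8 passed the filter and 2 were called, Il1rap as higher and Il18 as lower in OENr4a3. At a background of 23% of tested genes, 2 of 8 is near the share called across the table. The CPM of the 2 groups did not overlap for any of the 8, a pattern shared by 68.2% of all tested genes. Il1b and Il1rl1 were too scarce to test. Il1a passed the filter through the OENr4a3 libraries, since its OECtrl libraries were below the filter's count level.

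**Figure D1:**
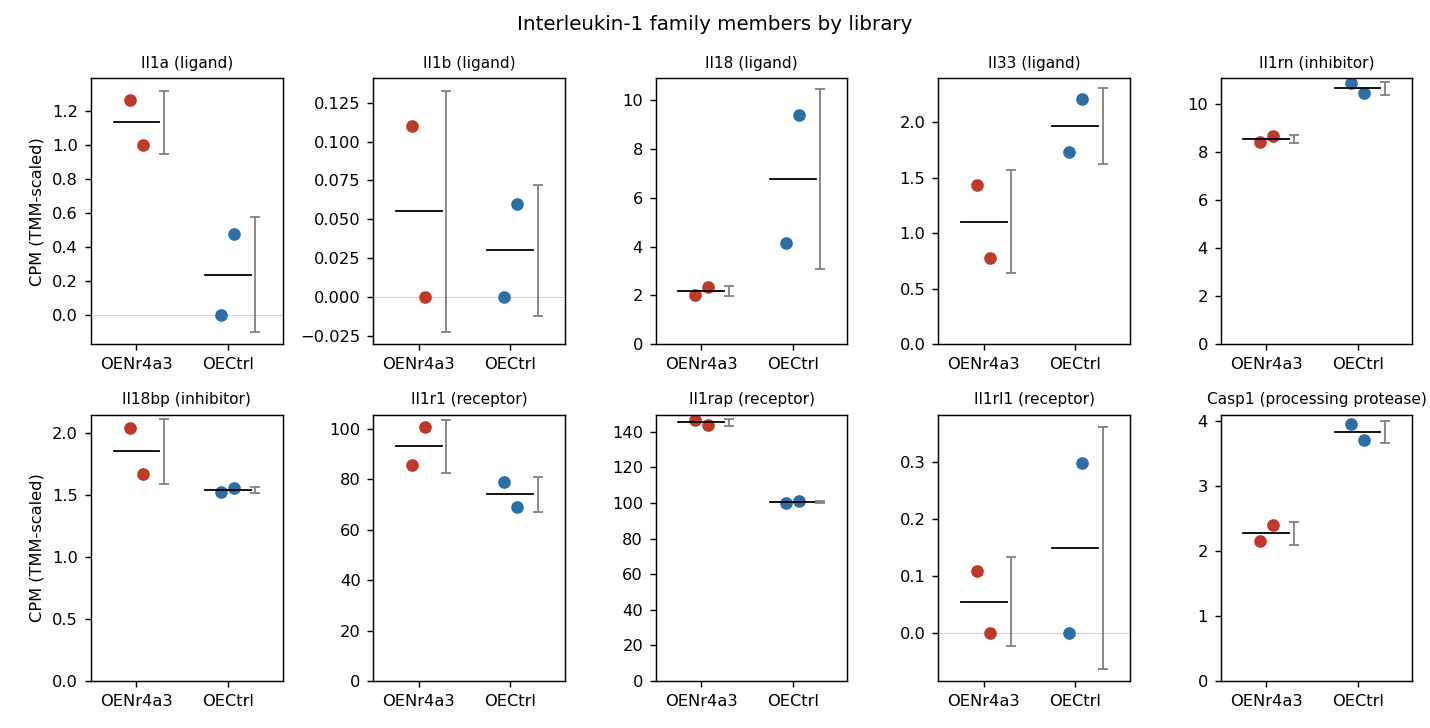
CPM of each of the 10 members (vertical axis, a separate linear scale per gene) in the OENr4a3 and OECtrl libraries; points are libraries, horizontal lines are means of 2 and grey bars show the mean ± SD. Il1rap stands at 146 and 144 CPM in OENr4a3 against 100.2 and 101 CPM in OECtrl, and the 2 OECtrl libraries differ widely in Il18, at 4.15 and 9.39 CPM.

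Per length, the receptor chains Il1r1 and Il1rap had the highest averages of the members, and Il1b and the receptor chain Il1rl1 the lowest. Over the 4 libraries, Il1r1 averaged 13.1 CPM per kilobase of exon (range 10.9 to 15.8), Il1rap 10.8 (8.82 to 12.9), Il18 4.35 (1.98 to 9.11), Il1rn 1.74 (1.52 to 1.96) and Casp1 0.972 (0.685 to 1.26). Il18bp averaged 0.561, Il33 0.533, Il1a 0.348, Il1b 0.0223 and Il1rl1 0.0148 CPM per kilobase. The ranges of Il1r1 and Il1rap overlapped, as did those of Il1rap and Il18. In OECtrl replicate 2, Il18 (9.11) stood above Il1rap (8.87). Each neighbouring pair from Il18bp down to Il1rl1 overlapped as well. The order from Il1r1 to Il18, and that from Il18bp to Il1rl1, is therefore not set beyond the spread.

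Il1rap, the accessory chain shared by the receptors of IL-1 alpha, IL-1 beta and IL-33, rose in OENr4a3. It had 2659 and 2588 reads in OENr4a3 and 1448 and 1685 in OECtrl, or 146 and 144 CPM in OENr4a3 against 100.2 and 101 CPM in OECtrl. Both OENr4a3 libraries lay above both OECtrl libraries, and replicates of each group lay close together. The mean was 145 ± 1.75 CPM in OENr4a3 and 101 ± 0.426 CPM in OECtrl (SD, n = 2 each), which is 1.44-fold higher (adjusted p = 0.00727) at a log2 fold change of 0.53 ± 0.0969 SE. With 11360 exonic bases Il1rap is among the longer genes (median of tested genes 4126), and with the trend with length removed its log2 fold change was 0.21 (adjusted p = 0.131), so that the call was lost. Leaving out OENr4a3 replicate 1 or 2 also ended the call, at nearly the same log2 fold change (0.53 and 0.55). In those fits OENr4a3 has 1 library and the spread comes from the OECtrl pair. That pair was the more variable over all genes, but not for Il1rap. Il1rap (ENSMUSG00000022514; GRCm38 chromosome 16, 26581704 to 26730117, plus strand) shares its locus with Gm20319 on the other strand, which had at most 5 reads in a library. The deposited counts are per gene and do not separate the membrane-bound from the soluble forms of this chain.

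The ligand-binding chain Il1r1, at comparable abundance, did not pass the test. Its libraries stood at 85.8 and 101 CPM in OENr4a3 and at 79.0 and 69.1 CPM in OECtrl (1557 and 1808 reads in OENr4a3, 1141 and 1155 in OECtrl). The groups did not overlap, but the replicates within each group lay further apart than the nearest libraries of the 2 groups. The log2 fold change was 0.33 (95% interval 0.0603 to 0.605, adjusted p = 0.0743), or 0.21 with the length trend removed (adjusted p = 0.161). Without OECtrl replicate 1 it passed as higher, at 0.43. In that fit OECtrl has 1 library and the spread comes from the OENr4a3 pair, the less variable pair over all genes. Per length, the ratio of Il1rap to Il1r1 was 0.957 and 0.802 in OENr4a3 and 0.711 and 0.817 in OECtrl, which overlap between groups. Il1r1 (ENSMUSG00000026072) lies at 40225080 to 40317257 of chromosome 1, plus strand, upstream of Il1rl1 (ENSMUSG00000026069, 40429570 to 40465415, plus strand). It shares its locus with Gm38070 on the same strand, which had at most 9 reads in a library.

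Il1rl1, the IL-33 receptor chain, was close to absent in both groups. It had 2 and 0 reads in OENr4a3 and 0 and 5 in OECtrl, a ratio of 0.345 with a 95% counting interval (exact binomial) of 0.0329 to 2.11. The interval covers counting error only, and no difference was detectable at this depth. Markers of mast cells, which are known to carry ST2, were few as well: the 8 summed to 6.06 and 5.79 CPM in OENr4a3 and 5.40 and 5.74 CPM in OECtrl, with Tpsb2 and Fcer1a at 0 in all libraries.

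Il18, the precursor of IL-18, fell in OENr4a3. It had 37 and 42 reads in OENr4a3 and 60 and 157 in OECtrl, or 2.04 and 2.34 CPM in OENr4a3 against 4.15 and 9.39 CPM in OECtrl. The OENr4a3 libraries lay close together and below both OECtrl libraries, which differed from each other by more than the lower of them differed from OENr4a3. The means were 2.19 ± 0.211 CPM in OENr4a3 and 6.77 ± 3.71 CPM in OECtrl (SD, n = 2 each), with a log2 fold change of -1.64 ± 0.369 SE (adjusted p = 0.0153). The size rests partly on OECtrl replicate 2: without it the log2 fold change was -0.92 and the call was lost (adjusted p = 0.0515), and without OECtrl replicate 1 it was -2.10. Il18 is short, with 1031 exonic bases, and with the length trend removed it kept its call at -1.27 (adjusted p = 0.0174). In bulk RNA, fewer cells of a type and less RNA per cell cannot be told apart. Il18 (ENSMUSG00000039217; chromosome 9, 50554827 to 50581840, plus strand) shares its locus with Bco2 and Tex12 on the other strand, which had at most 2 reads in a library.

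Casp1, whose product cuts the IL-18 and IL-1 beta precursors, had 39 and 43 reads in OENr4a3 and 57 and 62 in OECtrl. This was 2.15 and 2.39 CPM in OENr4a3 and 3.94 and 3.71 CPM in OECtrl, with replicates close together and no overlap between groups. It did not pass the test (log2 fold change -0.75, 95% interval -1.33 to -0.171, adjusted p = 0.0622; -0.64 with the length trend removed), nor did it under any of the 12 other fits (adjusted p 0.0530 to 0.352). It lies on the plus strand of chromosome 9 from 5298517 to 5307265 (ENSMUSG00000025888).

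Markers of macrophages and mesothelium were mostly lower in OENr4a3 alongside Il18 and Casp1, whereas those of heart muscle went in both directions. Of 16 macrophage markers 15 were tested and 8 were called (53.3%, against 23% of all tested genes). All 8 were lower in OENr4a3, a direction in which 11% of all tested genes were called. The median log2 fold change of the 15 was -0.61, against -0.01 over all tested genes. The 16 markers summed to 719 and 695 CPM in OENr4a3 and 1077 and 1054 CPM in OECtrl. Cd163 was at 0 in all but 1 library, whereas Csf1r, which did not pass, measured 20.1 ± 0.142 CPM in OENr4a3 and 24.4 ± 4.01 CPM in OECtrl. Of 7 mesothelial or epicardial markers, all tested, 5 were called as lower (71.4%), with a summed level of 324 and 309 CPM in OENr4a3 and 681 and 682 CPM in OECtrl. A high share called was not limited to markers of other cells. Of the 9 fibroblast markers, all tested, 5 were called (55.6%), 3 as higher and 2 as lower. The cardiomyocyte markers summed to 262 and 291 CPM in OENr4a3 and 451 and 497 CPM in OECtrl, nearly all of it Tnnt2, which was called as lower. The scarce Myh6 and Ttn were called as higher, and the median log2 fold change of the 4 tested was 1.42. The endothelial markers summed to 48.4 and 55.4 CPM in OENr4a3 and 58.1 and 58.3 CPM in OECtrl, with 1 of 7 tested called, Emcn, as lower. Within OECtrl the sums of the macrophage, mesothelial and endothelial lists were close between the libraries, unlike Il18. Single markers did differ there: Krt8, Krt18 and Emcn, singled out after their values were seen, were higher in replicate 2, as Il18 was, and the mesothelial marker Lrrn4 was lower. Krt8 measured 2.20 and 1.45 CPM in OENr4a3 and 6.99 and 12.3 CPM in OECtrl, and Krt18 measured 2.64 and 2.00 CPM in OENr4a3 and 6.57 and 10.8 CPM in OECtrl. Emcn measured 6.0 and 7.57 CPM in OENr4a3 and 10.0 and 14.9 CPM in OECtrl, and Lrrn4 measured 45.0 and 48.6 CPM in OENr4a3 and 144 and 105 CPM in OECtrl. The part of any of these cell types in the levels of Il18 and Casp1 was not tested.

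**Figure D2:**
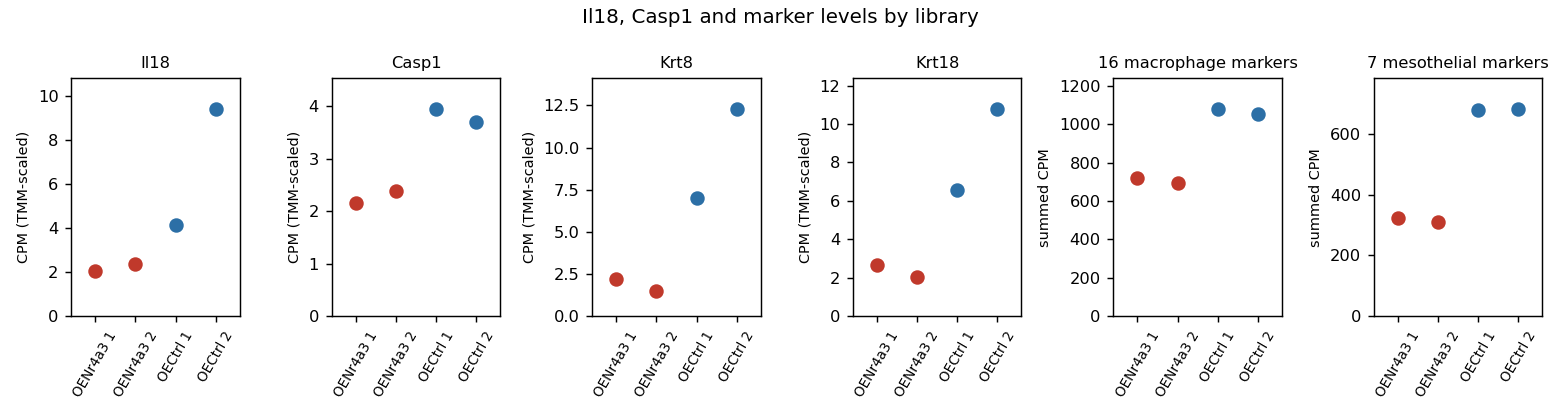
CPM of Il18, Casp1 and the keratins Krt8 and Krt18, picked after their values were seen, and the summed CPM of 16 macrophage and 7 mesothelial markers (vertical axes, linear from 0) in each library, OENr4a3 in red and OECtrl in blue. Il18 (9.39 CPM), Krt8 (12.3 CPM) and Krt18 (10.8 CPM) are highest in OECtrl replicate 2, whereas Casp1 and both marker sums are close between the OECtrl libraries. The mesothelial marker Lrrn4, which is not plotted, was lower in OECtrl replicate 2 than in the other OECtrl library.

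Il18bp, which encodes the binding protein that captures IL-18, had 37 and 30 reads in OENr4a3 and 22 and 26 in OECtrl. It measured 2.04 and 1.67 CPM in OENr4a3 and 1.52 and 1.56 CPM in OECtrl, and its difference was within the test's error (log2 fold change 0.27, 95% interval -0.489 to 1.02, adjusted p = 0.59). The ratio of Il18bp to Il18 per length was 0.341 and 0.243 in OENr4a3 and 0.125 and 0.0564 in OECtrl. All 4 ratios were below 1, with the OENr4a3 values above those of OECtrl, and the ratio itself was not tested. Il18bp (ENSMUSG00000070427; chromosome 7, 102014885 to 102018690, minus strand) overlaps Numa1 on the other strand. Numa1 had 2515 and 2579 reads in OENr4a3 and 1736 and 1500 in OECtrl, and since no source says whether counting used strand, reads of the pair cannot be told apart.

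Il1a, the alarm-type ligand of the IL-1 receptor, was scarce and its difference did not pass the test. It had 23 and 18 reads in OENr4a3 and 0 and 8 in OECtrl, or 1.27 and 1.00 CPM in OENr4a3 against 0 and 0.479 CPM in OECtrl. Both OENr4a3 libraries lay above both OECtrl libraries, where 1 library held all 8 reads. The ratio of summed reads was 4.42 (95% counting interval 2.05 to 10.9), and the fitted log2 fold change was 2.13 (95% interval 0.373 to 3.88, adjusted p = 0.0758). It passed as higher in limma-voom (3.12, adjusted p = 0.04) and once the length trend was removed (2.38, adjusted p = 0.044); it stood at 1.24 (adjusted p = 0.131) without OECtrl replicate 1, the library with 0 reads. Without OECtrl replicate 2 it passed as higher (adjusted p = 0.00691), against a single library at 0. Il1a (ENSMUSG00000027399; chromosome 2, 129299610 to 129309972, minus strand) overlaps Gm14023 on the other strand, which had 4 and 7 reads in OENr4a3 and 5 and 10 in OECtrl.

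Il1b, the main secreted ligand of the same receptor, was at the limit of detection. It had 2 and 0 reads in OENr4a3 and 0 and 1 in OECtrl, with a ratio of 1.73 and a counting interval of 0.0898 to 102, which leaves even the direction unresolved. The gene (ENSMUSG00000027398) lies near Il1a on chromosome 2, from 129364570 to 129371139 on the minus strand. The inflammasome sensor Nlrp3 was above that limit but too scarce to pass the filter on low counts, with 9 and 9 reads in OENr4a3 and 12 and 5 in OECtrl.

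Il1rn, which encodes the receptor antagonist, was the most abundant inhibitor. It measured 8.43 and 8.68 CPM in OENr4a3 and 10.9 and 10.5 CPM in OECtrl (153 and 156 reads in OENr4a3, 157 and 175 in OECtrl). Replicates lay close together and the groups did not overlap, but the difference did not pass the test (log2 fold change -0.32, 95% interval -0.666 to 0.0302, adjusted p = 0.159). Per length, Il1rn was 2.37 and 3.09 times as abundant as Il1a in OENr4a3, against at least 18.7 times in OECtrl replicate 1, with Il1a set to 3 reads in that library, and 7.80 times in OECtrl replicate 2. Il1rn exceeded Il1a in all 4 libraries, by a smaller factor in OENr4a3, and this ratio was not tested. The gene (ENSMUSG00000026981) lies at 24336853 to 24351494 of chromosome 2, plus strand, and its secreted and intracellular forms are not separated in these counts.

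Il33, the alarm-type ligand of ST2, had 26 and 14 reads in OENr4a3 and 25 and 37 in OECtrl. It measured 1.43 and 0.779 CPM in OENr4a3 and 1.73 and 2.21 CPM in OECtrl. The groups were separated by less than the gap between the OENr4a3 replicates, and the difference did not pass the test (log2 fold change -0.84, adjusted p = 0.159, 95% interval -1.75 to 0.0787). Without OENr4a3 replicate 2 the estimate was -0.45 and without replicate 1 it was -1.33. Il33 (ENSMUSG00000024810) lies at 29925114 to 29960718 of chromosome 19, plus strand.

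**Figure D3:**
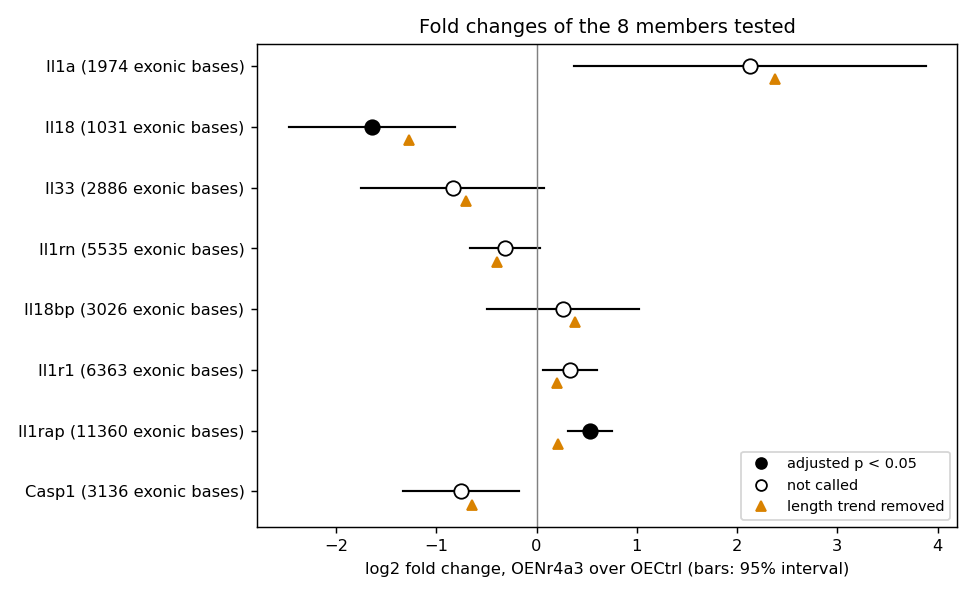
Log2 fold change (OENr4a3 over OECtrl, horizontal axis) of the 8 tested members, with 95% intervals as bars, filled circles for an adjusted p under 0.05 and triangles for the value with the length trend removed. Il18 at -1.64 and Il1rap at 0.53 are filled, and the triangle of Il1rap lies at 0.21.

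Beyond these members, most of the rest of the family was scarce, with Il1rl2 as the exception. Of 12 further ligands and receptors, 5 had 0 reads in all 4 libraries, among them all 4 interleukin-36 genes (filed under their older symbols), and 2 were abundant enough to test. Il1rl2, the interleukin-36 receptor chain, measured 20.9 and 21.9 CPM in OENr4a3 and 20.9 and 15.7 CPM in OECtrl (log2 fold change 0.23, adjusted p = 0.312). Il18rap, the accessory chain of the IL-18 receptor, measured 1.54 and 1.73 CPM in OENr4a3 and 0.692 and 1.02 CPM in OECtrl (0.92, adjusted p = 0.126). edgeR called 0 of the 2, with 1 at an unadjusted p under 0.05, and DESeq2 and limma-voom also called 0. The ligand-binding chain Il18r1 had 0 and 1 reads in OENr4a3 and 8 and 4 in OECtrl, and the decoy receptor Il1r2 had 5 and 9 reads in OENr4a3 and 3 and 4 in OECtrl.

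The intracellular pathway from the IL-1 receptor to NF-kB was expressed throughout. All 31 genes of the list passed the filter, and 2 were called, both higher in OENr4a3, a share of 6.45% against 23% of all genes. The median log2 fold change was 0.17, against -0.01 over all tested genes, in the fit that keeps the trend with length. With that trend removed 2 were also called, 1 higher and 1 lower. Irak3, which encodes IRAK-M, an inhibitor of IL-1 and Toll-like receptor signalling, rose to 17.1 ± 0.701 CPM in OENr4a3, against 11.3 ± 1.79 CPM in OECtrl (log2 fold change 0.61 ± 0.157 SE, adjusted p = 0.0249). Mapk9, which encodes the stress kinase JNK2, rose to 147 ± 3.70 CPM in OENr4a3, against 119 ± 0.179 CPM in OECtrl (0.31, adjusted p = 0.0474). The Mapk9 call was lost in 7 of 12 other fits, among them the one with the length trend removed (0.16, adjusted p = 0.19). With a library left out, which leaves 1 library in a group, the number called in this list rose and fell with the number called over all genes. Irak3 missed the threshold when OENr4a3 replicate 1 (adjusted p = 0.135) or 2 (0.0736) was left out, and without the filter on low counts (0.0533). Myd88, the adaptor of these receptors, measured 30.3 ± 1.35 CPM in OENr4a3 and 30.7 ± 2.93 CPM in OECtrl (-0.02, 95% interval -0.301 to 0.259, adjusted p = 0.919).

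Of 18 inflammasome genes 14 were tested, at a median log2 fold change of 0.04, and 1 was called (7.14%, against 23% of all tested genes). That gene was Pstpip1, which encodes an adaptor that binds pyrin and is known from leukocytes, and it fell to 6.34 ± 0.464 CPM in OENr4a3, against 13.8 ± 2.44 CPM in OECtrl (log2 fold change -1.12 ± 0.181 SE, adjusted p = 0.00436). The macrophage markers, with the sums given above, were lower alongside it, and their part in this difference was not tested. Pycard, the adaptor ASC that links sensors to caspase-1, measured 3.42 and 1.67 CPM in OENr4a3 and 4.22 and 3.77 CPM in OECtrl without passing (-0.65, adjusted p = 0.182). Aim2, a sensor of cytosolic DNA, measured 48.4 ± 5.41 CPM in OENr4a3 and 43.2 ± 3.95 CPM in OECtrl (0.16, adjusted p = 0.368).

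Genes known to respond to IL-1 in fibroblasts moved in both directions. Of 32 such genes 22 were tested and 12 were called (54.5%, against 23% of all genes): 5 rose and 7 fell, at a median log2 fold change of -0.05. The list was chosen with earlier results of these data known, so its share called cannot be read as a result about IL-1 targets. Among the rises, the chemokine Cxcl1 had 41 and 24 reads in OENr4a3 and 5 and 6 in OECtrl (2.32 ± 0.506 SE, adjusted p = 0.0137). Like Il1a, it passed the filter through the OENr4a3 libraries, so its call adds little to the count. The hyaluronan synthase Has2 rose to 17.7 ± 1.02 CPM in OENr4a3, against 7.64 ± 0.649 CPM in OECtrl (1.21, adjusted p = 0.00127). Zc3h12a and Tnfaip3, whose products restrain NF-kB signalling, both rose. Zc3h12a, which encodes the RNase regnase-1, reached 16.7 ± 0.0394 CPM in OENr4a3, against 8.90 ± 0.824 CPM in OECtrl (0.91, adjusted p = 0.00472). Tnfaip3, which encodes the ubiquitin-editing enzyme A20, reached 17.3 ± 0.905 CPM in OENr4a3, against 9.85 ± 1.92 CPM in OECtrl (0.82, adjusted p = 0.0113).

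Among the falls, the metalloreductase Steap4 dropped to 1.77 ± 0.0125 CPM in OENr4a3, against 8.91 ± 0.265 CPM in OECtrl (log2 fold change -2.33 ± 0.215 SE, adjusted p = 0.000254). The collagenase Mmp13 fell to 2.13 ± 0.524 CPM in OENr4a3, against 8.40 ± 0.455 CPM in OECtrl (-1.97, adjusted p = 0.000946). The acute-phase gene Saa3 (-1.31, adjusted p = 0.012) and the IL-6 family cytokine Lif (-0.63, adjusted p = 0.0076) fell as well. The remaining calls, Mmp3 (0.49), Ccl7 (-0.62), Ccl2 (-0.54) and Il6 (-0.46), were smaller, and those of Ccl7, Ccl2 and Il6 were lost with the length trend removed, at -0.24, -0.21 and -0.28. All 4 calls were also lost without OENr4a3 replicate 1 or 2 (adjusted p 0.0931 to 0.376), and those of Mmp3 (0.0534) and Il6 (0.0959) without the filter on low counts. Cxcl5, another chemokine and named after its values were seen, was below the filter, with 22 reads in OENr4a3 and 0 in OECtrl. With OECtrl set to 3 reads over the group the ratio was 6.33, which leaves out the counting error of the 22 reads. Without OENr4a3 replicate 1 or 2, 5 or 7 of the list were called. The call of Cxcl1 ended when OENr4a3 replicate 1 was left out (adjusted p = 0.189), that of Saa3 without the same library (0.0536) and that of Lif without replicate 1 (0.0716) or 2 (0.106), whereas Steap4, Mmp13, Has2, Zc3h12a and Tnfaip3 kept theirs in all 12 other fits.

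**Figure D4:**
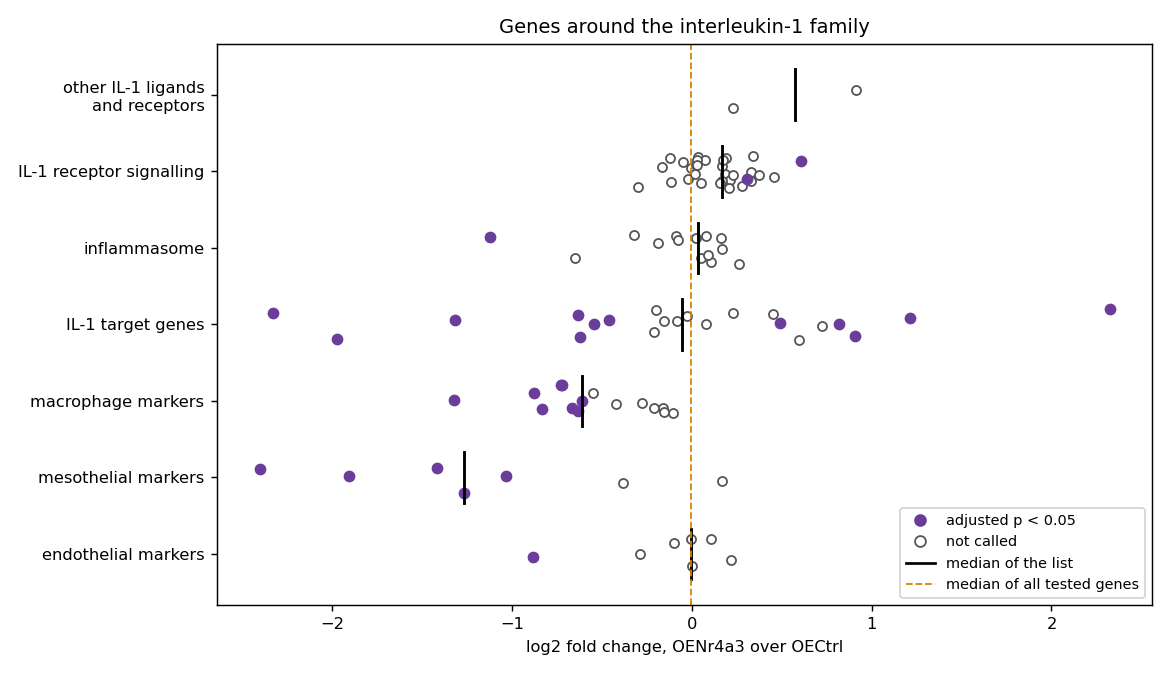
Log2 fold change (OENr4a3 over OECtrl, horizontal axis) of the tested genes of 4 lists around the interleukin-1 family and of 3 marker lists; filled points have an adjusted p under 0.05, vertical bars are list medians, the dashed line is the median of all tested genes, and the vertical scatter within a row carries no value. The signalling genes cluster near their median of 0.17, whereas IL-1 target genes spread from -2.33 (Steap4) to 2.32 (Cxcl1), and the macrophage markers lie below 0 with a median of -0.61.

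The genes whose profile over the 4 libraries lay closest to that of Il1rap, the called member with the smallest p-value, were Syk, Gpr146 and Elovl6. The measure was the Euclidean distance of log2 CPM centred on each gene's mean, among 10859 tested genes with a mean of at least 5 CPM, and the distances were 0.0253, 0.0367 and 0.0407. With 4 libraries in 2 groups, such a profile holds little beyond the difference between the groups. Syk, a tyrosine kinase, measured 48.3 ± 1.42 CPM in OENr4a3 and 33.4 ± 0.244 CPM in OECtrl.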

How the data were processed

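RNA of cultured newborn cardiac fibroblasts was extracted with TRIzol, depleted of ribosomal RNA and sequenced as stranded paired reads, per the labels' protocols. The authors deposited whole-number counts per Ensembl gene, per the file headers; the submitters' processing notes name Trimmomatic 0.36, Subread 1.5.1, featureCounts, SAMtools and mm10. No source used here names the aligner, annotation release or strand setting. The 4 FPKM columns were not used. Gene positions are from GENCODE M21 (GRCm38), matched by Ensembl identifier, since those in the table differ from it. Upstream sequences are from RefSeq (GRCm38.p6), where all 10 members matched by symbol.

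The counts went through edgeR 4.0.16 in R 4.3.3 (filterByExpr, TMM, two-sided quasi-likelihood test without a replicate block), with Benjamini-Hochberg adjustment over 15029 genes; limma 3.58.1 (voom) and DESeq2 1.42.0 gave alternatives. SE is the estimate divided by the root of its F statistic. CPM rest on 14275501 to 18441428 counts per library. Ratios of summed reads have exact binomial 95% intervals. The length trend was removed by lowess offsets per library (span 0.3). The procedure was also run on simulated counts, drawn at 1 dispersion for all genes and both groups (coefficient of variation 0.0955). These had no length trend and few changed genes. Of 14769 genes passing, it found 43.1% of 65 with a 1.5-fold change and 77.5% of 71 with a 2-fold change. It found 100% of 59 with a 4-fold change, and 4.05% of 148 calls were false. The deposited libraries differ from these settings, so the shares need not hold for them. Within groups, libraries differed beyond sampling noise (chi-square per degree of freedom 2.55 in OENr4a3 and 15.5 in OECtrl), so no pair was merged as 1 library deposited again; separate preparations of 1 culture could differ as much.

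Named by rule were the 10 members, Nr4a3, the called genes of the 4 lists around the family (up to 4 per direction by size, mean of at least 1 CPM), each cell type's marker of highest level and the 3 genes most like the called member of smallest p-value. Every other gene was named after its values were seen. The members and lists were chosen with earlier results of these data known. Alternatives were other tests, scalings and filters, each library left out, a replicate block, the length trend removed and a threshold of 0.01.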

Additional observations from a re-analysis of the deposited data

How the results depend on the processing

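The log2 fold change of each of the 8 tested members kept its sign under every alternative run. The call of Il18 was lost in 1 of 12 other fits and that of Il1rap in 3, whereas Il1a passed in 4 of the 11 that gave a value and Il1r1 in 1. Of members, 1 was called at an adjusted p under 0.01 and 1 to 3 with a library left out; 2 were called with the length trend removed, Il18 and Il1a. Across all genes, 1878 were called without the filter on low counts, 911 at an adjusted p under 0.01 and 1203 to 7133 with a library left out. Among the IL-1 receptor signalling genes 1 was called in DESeq2, 1 with upper-quartile factors, 0 without the filter on low counts (edgeR) and 0 to 11 with a library left out. Inflammasome calls were 1 to 3 with a library left out and 2 with the length trend removed. IL-1 target calls were 5 to 15 and calls among the other family genes 0 to 1 with a library left out. The causes were not tested; a fit without a library has 1 library in a group, which is assumed to vary like the other pair. The replicate numbers are shared by the groups but not stated to pair the libraries, and deviations of same-numbered libraries correlated at -0.0776. With the replicate block, 1 signalling gene was called, Il1a passed as higher (2.21, adjusted p = 0.00944), and Il18 and Il1rap kept their calls. Low depth limits Il1a, Il1b, Il1rl1, Il33 and Il18bp, with 3 to 115 reads in all.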
